A study of Mus musculus with 17 samples.

Results

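Among 52415 regions of open chromatin in mouse kidney, 452 had a summit more often in untreated db/db mice than in healthy mice and less often again in db/db mice treated with dapagliflozin. The 52415 are the regions found in at least 2 of 17 libraries, 1 library per mouse. The words gained and lost refer to these shares of mice, since each mouse was measured once. A summit is the position where a peak of accessibility is highest. The members were chosen on measured presence. Each mouse was represented by as many of its highest-scoring summits as the shortest list holds, that of Case 4. Each summit was extended by 250 bp to each side, and overlapping extended summits of all mice were merged into regions. A region was kept when the share of mice with a summit was at least 0.5 higher in untreated db/db mice than in healthy mice, and at least 0.5 lower in treated than in untreated db/db mice. Presence in all 17 mice was used by this rule, so it is described below without a test. The count of 452 became 263 to 537 with 1 mouse left out and 229 with lists of 0.5 times the length.

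ATAC-seq (assay for transposase-accessible chromatin with sequencing) was performed on male mouse kidneys, with 20000 cells per library. The Ctrl group held C57BL/6 mice of wild-type genotype that were given saline (n = 5). The Case group held db/db mice on the BKS background (BKS.Cg-Dock7m +/+ Leprdb/J), which lack a working leptin receptor and become obese and diabetic, also given saline (n = 6). The Dapa group held db/db mice of the same strain that received dapagliflozin by gavage at 1 mg/kg/day (n = 6). Dosing in every group began at 8 weeks of age and lasted 6 weeks. Ctrl and Case differ in genotype, strain and diabetes at once, and these cannot be told apart. Dapa and Case share genotype and strain. No healthy mice given dapagliflozin were analysed here, and no batch is named in the labels.

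The Tn5 transposase used in ATAC-seq cuts DNA that is not wrapped tightly in nucleosomes, so peaks mark active promoters, enhancers and insulator sites. Most kidney cells belong to the tubule, and the proximal tubule reabsorbs filtered glucose through SGLT2, the transporter that dapagliflozin blocks. In a whole kidney, a site that opens in some cells and a larger share of cells in which it is always open give the same signal, and these cannot be told apart. Of 25 kidney epithelium markers, 13 to 14 had a summit no more than 1 kb from a start in Ctrl mice, 9 to 15 in Case mice and 10 to 13 in Dapa mice. Lrp2 (megalin), Slc12a3, Pax8, Hnf4a and Cdh16 had one in every mouse, whereas Aqp2, Slc12a1, Pvalb, Scnn1b, Atp6v1g3 and Slc4a1 had none in any. Others varied with the group. Slc5a2, which encodes SGLT2, had one in 4 Ctrl, 1 Case and 4 Dapa mice, the urate transporter gene Slc22a12 in 5, 2 and 1, Slc5a12 in 5, 3 and 4, and Pax2 in 3, 6 and 6. The podocyte gene Nphs1 had one in 0, 3 and 0, Umod in 2, 4 and 2, and Aqp3 in 3, 5 and 4.

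The sequences of 6 members without a near-identical copy illustrate the promoters and the interferon-related sites among the 452. Each run is read 5′ to 3′ on the plus strand of GRCm38 (mm10), from RefSeq, and lies within 300 bp centred on the median summit, clipped where an untranslated region begins. Capitals mark matches to short motifs on either strand. Of 16 motifs searched, those marked in these windows were the GC box (GGGCGG) of many housekeeping promoters, the AP-1 site (TGANTCA), the CCAAT box (CCAATCA) and the interferon-stimulated response element, taken as GAAA and GAAA separated by any 2 bases. The Rsad2 window is at chr12:26460171-26460470 and holds 2 response elements. The Irgm1 window is at chr11:48871421-48871588 and holds 2 overlapping response elements, a GC box and an AP-1 match. The Xaf1 window is at chr11:72301372-72301628 (a GC box and an AP-1 match), and that of H2-Ab1 at chr17:34261558-34261857 (a CCAAT box). The Adam15 window, at chr3:89340517-89340816, holds none of these motifs and is shown because it is the first member by difference in share. The Bhlha15 window, at chr5:144189957-144190256, holds 2 GC boxes.
Rsad2: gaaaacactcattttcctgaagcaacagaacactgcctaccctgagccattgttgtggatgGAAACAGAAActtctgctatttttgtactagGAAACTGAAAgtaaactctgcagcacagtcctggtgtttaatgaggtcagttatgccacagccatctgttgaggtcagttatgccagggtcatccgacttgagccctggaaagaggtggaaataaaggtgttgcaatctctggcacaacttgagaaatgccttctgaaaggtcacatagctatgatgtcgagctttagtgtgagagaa
Irgm1: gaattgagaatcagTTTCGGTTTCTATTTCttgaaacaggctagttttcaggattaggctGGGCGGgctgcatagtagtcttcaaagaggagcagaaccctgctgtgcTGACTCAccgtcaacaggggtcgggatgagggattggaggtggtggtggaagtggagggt
Xaf1: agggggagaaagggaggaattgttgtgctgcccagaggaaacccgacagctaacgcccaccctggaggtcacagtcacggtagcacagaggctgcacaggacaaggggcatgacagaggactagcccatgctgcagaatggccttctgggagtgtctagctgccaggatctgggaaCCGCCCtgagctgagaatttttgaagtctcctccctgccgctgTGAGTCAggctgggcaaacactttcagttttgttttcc
H2-Ab1: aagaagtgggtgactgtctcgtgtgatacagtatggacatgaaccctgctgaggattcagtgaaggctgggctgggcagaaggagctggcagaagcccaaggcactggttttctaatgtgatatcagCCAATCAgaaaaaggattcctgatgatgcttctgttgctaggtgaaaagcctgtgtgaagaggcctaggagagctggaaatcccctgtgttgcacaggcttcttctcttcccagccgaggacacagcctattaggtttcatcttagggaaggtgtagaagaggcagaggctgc
Adam15: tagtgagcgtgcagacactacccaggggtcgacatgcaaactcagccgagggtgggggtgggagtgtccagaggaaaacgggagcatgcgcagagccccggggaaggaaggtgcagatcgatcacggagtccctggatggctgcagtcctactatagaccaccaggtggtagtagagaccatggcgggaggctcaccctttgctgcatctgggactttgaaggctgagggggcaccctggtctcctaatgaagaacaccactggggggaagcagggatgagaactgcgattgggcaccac
Bhlha15: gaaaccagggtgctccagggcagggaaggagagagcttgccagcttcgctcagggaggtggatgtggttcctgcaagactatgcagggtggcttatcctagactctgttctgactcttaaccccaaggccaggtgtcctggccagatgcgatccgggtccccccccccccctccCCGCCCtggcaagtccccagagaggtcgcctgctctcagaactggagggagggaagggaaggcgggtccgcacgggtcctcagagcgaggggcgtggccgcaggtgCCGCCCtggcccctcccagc

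The rule admitted 0.862% of all regions. Its first difference alone, a share at least 0.5 higher in Case than in Ctrl, was met by 2.73% of regions (1429), and its second, a share at least 0.5 lower in Dapa than in Case, by 2.17% (1140). The members are therefore 452 of the 1429 gained regions, and the other 977 did not fall by 0.5 under dapagliflozin. These 977 are called gained and not lost below, although 264 of them had a summit in 3 Case mice and only 1 Dapa mouse. The opposite pattern, a summit lost in Case and regained in Dapa, was met by 695 regions. Nothing is read from these shares, because the same mice chose the regions.

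Presence of the members by mouse follows the rule but not evenly. The number of members with a summit was 12, 6, 16, 30 and 24 in Ctrl 1 to 5. It was 279, 285, 302, 311, 229 and 268 in Case 1 to 6, and 30, 56, 45, 37, 35 and 31 in Dapa 7 to 12. Case 4 and Case 3 held the most members and Case 5 the fewest of its group. These are also the Case mice with the lowest and highest scores at the end of the lists of equal length, 2.01 in Case 4, 2.38 in Case 3 and 5.20 in Case 5, the −log10 of a p- or q-value. In Ctrl this score ran from 3.91 to 5.53 and in Dapa from 3.11 to 4.66. The part of list strength in membership was not tested. Over all regions, 37.4% to 52.2% had a summit in a Case mouse, against 48.4% to 52.9% in Ctrl and 44.7% to 50.6% in Dapa.

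More than any other pattern, members stood at the edge of the rule. A summit in exactly 3 of 6 Case mice and in no Ctrl or Dapa mouse described 260 of them (57.5%), the smallest value the rule accepts for both differences. The difference between Case and Dapa was also the smallest accepted for other members. These were 63 with 4 Case mice and 1 Dapa mouse, and 17 and 14 with 5 Case and 2 Dapa mice. The 24 members with 6 Case and 3 Dapa mice stood at this edge too. The number of Case mice was 4 for 102 members, 5 for 54 and 6 for 36. No Ctrl mouse had a summit at 387 members, no Dapa mouse at 309, and neither group at 303. Just outside the rule lay 264 regions that differed from the most common pattern by a summit in 1 Dapa mouse, 81 regions with 4 Case mice and 1 Ctrl mouse, and 1979 regions present in only 2 Case mice. The 260 members with 3 Case mice came from every combination of 3 mice, most often Case 2, 3 and 4 (34 members) and Case 3, 4 and 6 (23 members).

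Below this limit, the complete lists go on to weaker ones in all mice but Case 4. There the members with a summit numbered 89, 125, 109, 92 and 75 in Ctrl 1 to 5, 301, 286, 302, 311, 285 and 294 in Case 1 to 6, and 116, 133, 64, 70, 98 and 58 in Dapa 7 to 12. The Case mice stayed above every other mouse, but the gap narrowed. Of the 387 members without a Ctrl summit, 210 (54.3%) had one below the limit of a Ctrl mouse, and of the 309 without a Dapa summit, 137 (44.3%) had one below the limit of a Dapa mouse. Such summits are weaker than the others of the same list, but the limits of the 5 Ctrl mice lie above those of Case 1, 2, 3 and 4. With these summits counted, 159 members (35.2%) still met the rule, and 94 (20.8%) had no summit at all in any Ctrl or Dapa mouse. The complete lists differ in length, with up to 51292 summits in Case, 37402 to 56659 in Ctrl and 32846 to 49442 in Dapa, and the longer lists hold more summits below the limit.

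**Figure D1:**
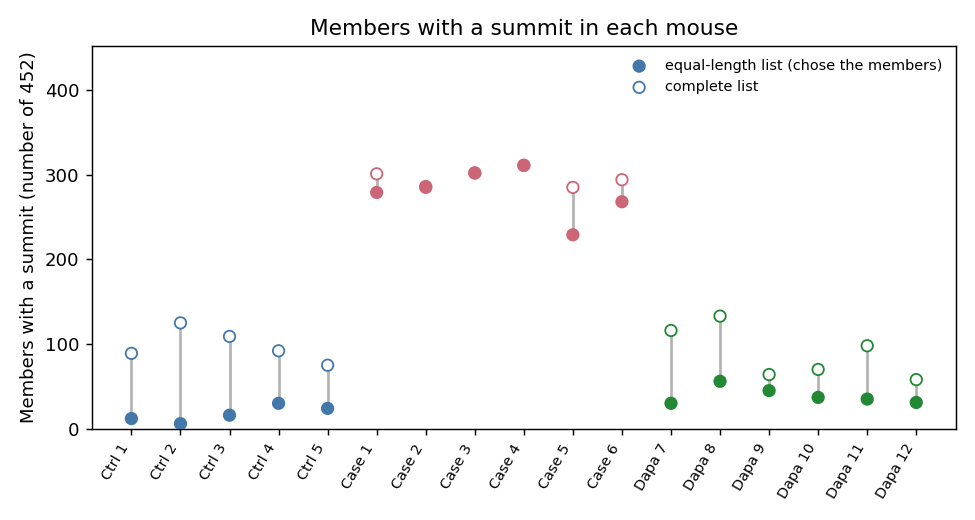
Number of the 452 members (vertical axis) with a summit in each mouse (horizontal axis), blue for Ctrl, red for Case and green for Dapa. Filled points use the lists of equal length, which chose the members, and open points the complete lists. Ctrl mice rise from 6 to 30 to between 75 and 125, and Case mice stay between 229 and 311.

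A mouse that had no part in the choice gives a reading the rule did not use. Each mouse was left out in turn, the rule was applied to the other 16, and the regions so chosen (263 to 537) were looked up in the mouse left out. In the Case mice 28.5%, 26.5%, 28.5%, 32.3%, 20.4% and 25.3% of them had a summit. In the Ctrl mice 14.6%, 10.6%, 12.8%, 20.4% and 20.3% did, and in the Dapa mice 17.4%, 28.7%, 23.3%, 16.9%, 15.7% and 18.9%. The Case values were the highest by median (27.5%, against 14.6% in Ctrl and 18.1% in Dapa). With complete lists, however, the medians were 22.0% in Case, 21.2% in Ctrl and 14.7% in Dapa. Left-out Case mice were read at 263 to 334 chosen regions, Ctrl mice at 499 to 537 and Dapa mice at 389 to 457. With fewer Case mice, the rule still asks for a summit in as many of them, so a larger share is needed. The part of this stricter choice in the higher Case values was not tested. In the lists of equal length, Case 5 was no higher than Ctrl 4, and Dapa 8 was higher than 5 of the 6 Case mice. The choices share most of their mice, so no p-value is given. Regions found in at least 2 of the other mice had a summit in the mouse left out in 34.0% to 51.8% of cases. In every mouse the chosen regions were thus found less often than regions in general. The rule passes over regions present in most Ctrl or Dapa mice, so this order is not a result about the chosen regions.

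**Figure D2:**
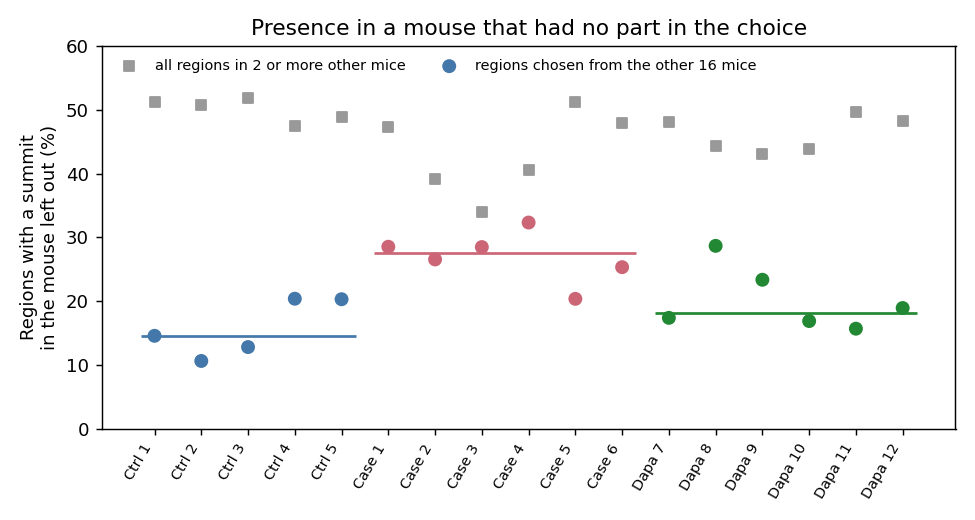
Percentage (vertical axis) of regions chosen from the other 16 mice that have a summit in the mouse left out (coloured points; blue Ctrl, red Case, green Dapa; lines are group medians), with all regions found in at least 2 of the other mice as grey squares. Case mice lie between 20.4% and 32.3% and overlap the Ctrl and Dapa mice. The choice is stricter where a Case mouse is left out.

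Member summits were weak in the lists that held them. This is a description of values the rule used, because a region strong in every mouse cannot be a member and one near the limit of the lists can. Ranks count from 1 at the highest score, and between mice they compare only positions in lists of equal length. Over the Case mice, the best summit of a member had a median rank of 20956.5, against 12257 for all regions. Of member summits 7.11% stood in the first of 3 equal parts of a list and 56.2% in the last, against 40.9% and 24.6% over all regions. In each of the 17 mice the median rank of members was lower in the list than that of all regions. The mean rank over the Case mice with a summit was within the first 10000 for 7 members, which were picked out after their values had been seen. They were regions nearest Nmur2, Gm12020, Lmntd1, Cd74, Gm42513, Ier5 and 3110039I08Rik. The Ier5 region, chr1:155102312-155102872, was present in 3 Case mice and absent from the complete list of every Ctrl and Dapa mouse. It lies -2957 bp from the start of this immediate early gene. The Nmur2 region was a member only in the order of equal scores used here, and in 0 of 20 other orders.

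**Figure D3:**
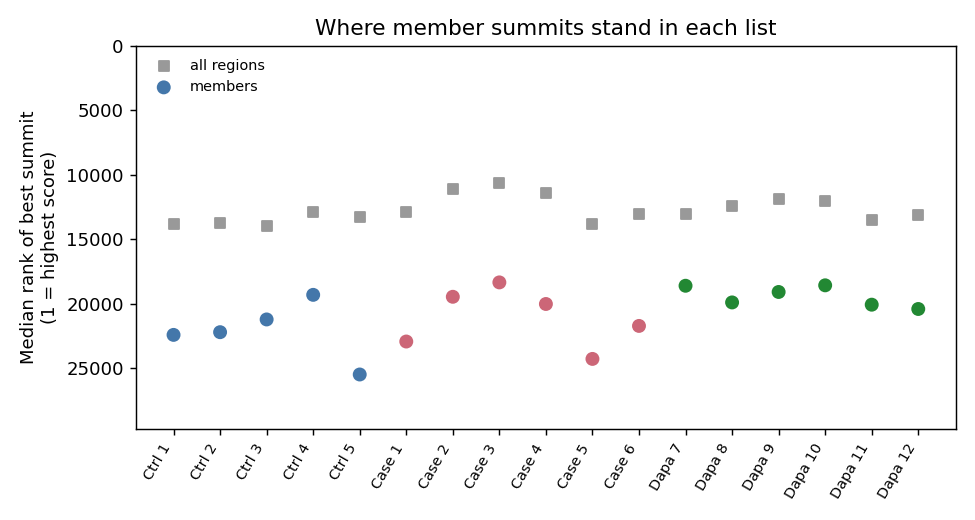
Median rank of the best summit (vertical axis, 1 at the top) at members (coloured points; blue Ctrl, red Case, green Dapa) and at all regions (grey squares) in each mouse. Members stand lower in every mouse, with medians of 18347.5 to 24285 in Case.

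Members were less often promoters than regions in general. A summit closer than 1 kb to a transcription start was found in 75 of 452 (16.6%, or 15.3% to 19.8% when 1 mouse was left out), against 32.9% of all regions, 21.9% of regions gained in Case and not lost in Dapa, and 31.8% of regions lost in Case and regained in Dapa. With lists of 0.5 times the length it was 28.4% of members and 47.8% of all regions. By the median summit, 203 members were intergenic (44.9%, against 42.2% of all regions), 196 intronic and 53 exonic. The nearest annotated start was that of a pseudogene for 114 members (25.2%, against 13.0% of all regions), 82 of which had a copy elsewhere. It was that of a protein-coding gene for 225 (49.8%, against 63.9%). The members' median width was 715 bp and their median GC content 52.7%, against 640 bp and 52.3% over all regions.

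Near-identical copies elsewhere in the genome were more frequent among members than among all regions. In 195 of 452 members (43.1%, or 31.5% to 52.1% when 1 mouse was left out), the 300 bp around the median summit had at least 1 other place in the reference with 95% identity or more over 90% of the length. This held for 14.3% of all regions, for 32.2% of regions gained and not lost, and for 3.45% of regions lost and regained. With lists of 0.5 times the length it held for 21.0% of members and 5.49% of all regions, and with scores of at least 5 for 21.6% and 7.66%. Of the members 110 (24.3%) had at least 10 copies, against 8.30% of all regions, and 179 (39.6%) consisted mostly of soft-masked repeats, against 13.4%. The files do not show how reads from copies were placed, so these positions may be uncertain. Members with a copy were promoters in 8.72% of cases and intergenic in 64.1%, and the 257 without a copy in 22.6% and 30.4%. The share that met the rule in the complete lists was alike, 34.9% with a copy and 35.4% without.

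Regions with a copy were not spread evenly over the mice. They made up 15.2% of the regions of Case 3, 13.5% of those of Case 2 and 12.6% of those of Case 4, but 5.44% in Case 5, 8.10% in Case 6 and 8.30% in Case 1. In Ctrl they made up 4.60% to 8.04% and in Dapa 5.80% to 11.8%, where Dapa 9 was highest. Members with a copy were found 108, 140, 147, 149, 65 and 106 times in Case 1 to 6, a mean of 119 ± 32.7 (SD, n = 6). Members without a copy were found 160 ± 8.89 times (SD, n = 6), most often in Case 1 (171) and least often in Case 2. Leaving out Case 3 lowered the share of members with a copy to 31.5%, and leaving out Case 5 raised it to 52.1%. What part these libraries had in the share of copies was not tested.

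**Figure D4:**
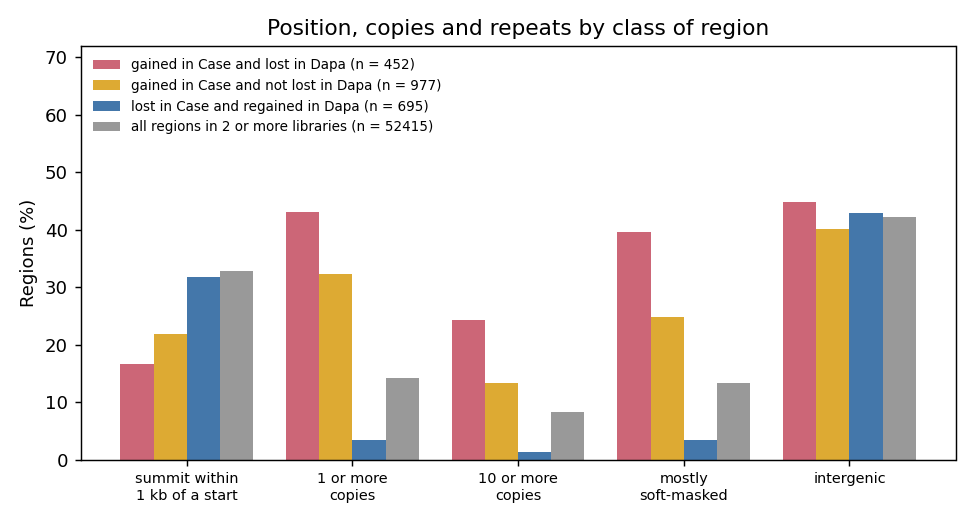
Percentage of regions (vertical axis) with each feature (horizontal axis) for the 452 members (red), 977 regions gained in Case and not lost in Dapa (yellow), 695 regions lost in Case and regained in Dapa (blue) and all 52415 regions (grey). Members are lowest for summits near a start (16.6%) and highest for copies (43.1%).

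Along the genome, members were found on every chromosome but Y, where 0 of 227 regions were members. Chromosome 17 held 36 of them (7.96% of members, 4.61% of regions) and chromosome 2 held 18 (3.98% and 7.27%). The 5 Mb windows with the most members were chromosome 4, the 5 Mb that end at 150 Mb (11 members of 447 regions, 2.46%, 8 with a copy), chromosome 17, 5 to 10 Mb (10 of 254, 3.94%, 4 with a copy), and chromosome 7, 20 to 25 Mb (9 of 213, 4.23%, 7 with a copy), where 0.862% of all regions were members. A window with fewer members but a higher share lay on chromosome 13, at 10 to 15 Mb (5 of 114, 4.39%). On chromosome 1, the duplicated segment at 85 to 90 Mb held 5 members of 342 regions (1.46%), 3 of them with a copy. Vmn1r genes, a large family of vomeronasal receptors in clusters of similar genes, were nearest to 188 regions, and 9 of these were members (4.79%, against 0.862% of all regions), 8 of them with a copy.

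Motif letters in the 300 bp windows were less common in members than in all regions for several promoter elements. A GC box was found in 14.4% of members and 24.5% of all regions, and a CCAAT box in 1.33% and 5.24%. Among the 75 members at a start the GC box share was 33.3%, against 55.7% of all regions at a start. Elsewhere it was 10.6% against 9.26%. An E-box (CACGTG) was found in 3.98% against 7.01%. Letters of the kidney and liver factors HNF1 and HNF4 were found in 1 and 2 members (0.221% and 0.442%), against 1.94% and 2.15% of all regions. AP-1 sites were about as frequent in members (9.51%) as in all regions (9.19%), and so were the CTCF insulator letters (6.19% and 7.41%). Without copies, on both sides, these shares were 12.1% and 9.57% for AP-1 and 10.9% and 8.17% for CTCF, so that the order of members and all regions turned for CTCF. The interferon-stimulated response element was found in 10 members (2.21%), against 2.46% of all regions, and none of the 10 had a copy. Without copies this share was 3.89%, against 2.49%, also the reverse order. These are matches of letters and not bound sites.

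Interferon response and antigen presentation genes were the list with the largest share of members. Of 64 regions nearest to 1 of its 36 genes, 5 were members (7.81%, against the 0.862% of all regions that met the rule). They were nearest Cd74, H2-Ab1, Irgm1, Rsad2 and Xaf1. Another 4 were gained in Case and not lost in Dapa, nearest H2-Aa, H2-D1, Ifit3 and Tapbp, and the other 55 met neither description. Over all 52415 regions, 977 were gained and not lost. The list was chosen with earlier results of these data known, and the same mice chose the members, so the share is a description. Over the whole list, 14 to 20 genes had a summit closer than 1 kb to a start in Ctrl mice (median 17), 18 to 26 in Case mice (median 22) and 19 to 23 in Dapa mice (median 21), so the groups overlapped and the Dapa median stood near that of Case. Genes such as Ifi27 (1 Ctrl, 0 Case and 5 Dapa mice) and Usp18 (4, 3 and 6) had a summit in more Dapa than Case mice.

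The member at Cd74, which encodes the invariant chain that escorts class II molecules, lies -177 bp from the start of the gene on chromosome 18, 60803413 to 60803955. Its best summit had rank 6160 in Case 1, 11400 in Case 2, 4440 in Case 3 and 3952 in Case 5, and rank 20344 in Dapa 7. No other mouse had a summit there even in its complete list. It was thus among the stronger member summits and was absent from 2 Case mice, 5 Dapa mice and the 5 Ctrl mice. The member near H2-Ab1, the beta chain of a class II molecule, lies at chr17:34261456-34261971, in an intron of an H2-Ab1 transcript and -1502 bp from the nearest start. It had rank 14519 in Case 1, 23635 in Case 3 and 13328 in Case 5, and no summit in any other mouse. A neighbouring region at the H2-Ab1 start (-36 bp) was not a member, since 3 Ctrl, 5 Case and 4 Dapa mice had a summit there.

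Rsad2 encodes viperin, an antiviral enzyme induced by interferon. Its member, chr12:26459965-26460627, lies -3868 bp from the start and holds the 2 response elements shown above. Its rank was 18708 in Case 1, 15837 in Case 3 and 19002 in Case 5. Dapa 8 had a summit below the limit at rank 30461, so this member did not meet the rule in the complete lists. The region at the Rsad2 start itself was present in 2 Case mice and 1 Dapa mouse and was not a member. Xaf1 encodes an interferon-inducible promoter of apoptosis. Its member, chr11:72301191-72301815, lies -108 bp from the start and had rank 14558 in Case 1, 25492 in Case 4 and 5501 in Case 5, with no summit elsewhere. Case 1 and Case 5 thus carried the members at Cd74, H2-Ab1, Rsad2 and Xaf1, and Case 6 none of these 4.

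The Irgm1 promoter behaved differently. Irgm1 is an interferon-induced GTPase of the defence against microbes in vacuoles, and its member, chr11:48871116-48871814, lies -18 bp from the start. Ranks in Case 1 to 6 were 20006, 12612, 8768, 26110, 11840 and 12509. Ctrl 1 and Ctrl 3 also had a summit, at ranks 15607 and 29316, as did Dapa 10, 11 and 12, at ranks 18575, 12986 and 27763. With summits below the limit, 3 Ctrl mice and 4 Dapa mice had one. This region, like the member near Rsad2, therefore no longer met the rule in the complete lists. Neighbouring regions were not members. The one 1456 bp from the start had a summit in 1 Ctrl, 0 Case and 3 Dapa mice, the other direction. The one at -1384 bp had a summit in 0 Ctrl, 2 Case and 0 Dapa mice.

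Leukocyte promoters are given beside these members because class II genes are also active in immune cells. Of 25 leukocyte identity genes, 0, 0, 0, 2 and 0 had a summit within 1 kb of a start in Ctrl 1 to 5, 0, 0, 11, 2, 1 and 0 in Case 1 to 6, and 1, 5, 1, 3, 2 and 0 in Dapa 7 to 12. Ptprc, Cd4, Cd79a, Adgre1 and Itgam had none in any mouse. Case 3 stood apart, with summits at Csf1r, Spi1, Tyrobp, Fcer1g, Laptm5, Cd68 and Cd3d among others. Case 1 had 0 and Case 5 had 1, and both had the members at Cd74, H2-Ab1, Rsad2 and Xaf1. Case 3 had 3 of these 4 members, those at Cd74, H2-Ab1 and Rsad2. The part of immune cells in these members was not tested. Of 21 regions nearest to a leukocyte gene 0 were members, too few regions to read against the 0.862% of all regions.

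Other listed genes were near few members, at shares that are read against the 0.862% of all regions. Of 187 regions nearest to glucose and lipid metabolism genes, 3 were members (1.60%). The member near Pck1, which encodes the gluconeogenic enzyme PEPCK, lies -14622 bp from its start at chr2:173138135-173138970 and had rank 20663 in Case 1, 16452 in Case 2 and 26434 in Case 4. That near Slc2a2, the GLUT2 glucose transporter, lies -1550 bp from its start at chr3:28696076-28696611 and had rank 28922 in Case 1, 27445 in Case 3 and 13775 in Case 4. Neither had a summit in any other mouse. The member nearest Ppargc1a lies 315113 bp away and had at least 100 copies in the genome. Of 73 regions nearest AP-1 and immediate early genes, 1 was a member (1.37%), -72692 bp from Klf4 and 9 bp from the start of the noncoding RNA Gm12506. The kidney epithelium (119 regions), tubular injury and inflammation (66), housekeeping (65), and endothelium and stroma (35) lists had 0 members. With this few regions, 0 is near the background share and is not a result about these lists.

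The study's candidate genes Isg15, Btla and Csf2rb, and Slc5a2, the gene of the drug's target, had too few regions to read against the 0.862% of all regions, and 0 of these regions were members. Between 2 kb upstream and the end of the gene, Isg15 and Btla had 0 regions found in at least 2 mice, Csf2rb had 1 region and Slc5a2 had 3. Within 1 kb of a start, Csf2rb had a summit in Case 3 alone. The paper reported higher accessibility in Case at Isg15 and Csf2rb and lower at Btla, each reversed with dapagliflozin, from quantified signal. Presence of summits is another measure, and signal was not quantified here.

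The members with the largest summed differences in share had a summit in 5 or 6 Case mice. The first was at Adam15, a membrane metalloprotease, at chr3:89340313-89340961, -226 bp from its nearest start and in an exon of the gene. Ranks were 22935, 13261, 9948, 16569 and 25168 in Case 1 to 5, and Case 6 had no summit. No Dapa mouse had one at any score, whereas Ctrl 1, Ctrl 2 and Ctrl 4 had one below the limit, at ranks 34703, 50708 and 33983. This member therefore did not meet the rule in the complete lists.

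The next 3 were also present in 5 Case mice and in no Ctrl or Dapa mouse within the limit. The region in an intron of Gm12216, chr11:53839196-53840145, had Case ranks of 13546 to 24829 and was absent from Case 4. It had summits below the limit in Ctrl 3 and in Dapa 7, 10 and 11, and did not meet the rule in the complete lists. The region near Creg1, a secreted lysosomal glycoprotein, chr1:165767449-165768632, lies in an intron, -1232 bp from the nearest start. Its 300 bp window is 97% soft-masked. It had Case ranks of 15231 to 23840 and was absent from Case 5, with summits below the limit in Ctrl 3, Dapa 7 and Dapa 9. The Tmcc3 promoter, chr10:94311386-94312349, -15 bp from the start, had Case ranks of 14080 to 29301, was likewise absent from Case 5, and had 1 summit below the limit, in Ctrl 5. The regions at Creg1 and Tmcc3 both met the rule in the complete lists.

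A member in an untranslated region of Vmn1r79, chr7:12178145-12178873, was present in the 6 Case mice at ranks of 10931 to 26242 and in no Ctrl mouse at any score. Dapa 9, 11 and 12 had a summit within the limit and Dapa 7 and 8 below it, so only Dapa 10 lacked one. The region has 3 copies elsewhere. An intergenic region on chromosome 2 nearest Gm25264 has 96 copies and was present in Case 1 to 5 and Dapa 10.

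Hoxb9, a homeobox gene of axial patterning, held a member in an exon, 362 bp from the start, at chr11:96271474-96272652. Ranks in Case 1 to 5 were 22887, 20116, 6995, 22961 and 23823. Dapa 11 had a summit at rank 10730, higher in its list than in 4 of those 5 Case mice in theirs. No Ctrl mouse had a summit at any score, and the region met the rule in the complete lists too. It was the only member among 58 regions whose nearest protein-coding gene is a Hox gene (1.72%, against 0.862% of all regions). With this few regions, 1 member is not a result about Hox genes.

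Promoters of further protein-coding genes ranked high by the same order. Bhlha15, also called Mist1, encodes a transcription factor of secretory cells. Its member, chr5:144189721-144190423, -180 bp from the start, had ranks of 16686, 14894, 19882, 20310 and 24472 in Case 1, 2, 4, 5 and 6, and 28210 and 23109 in Dapa 8 and 9. In the complete lists 2 Ctrl and 4 Dapa mice had a summit there. The region at Lemd3, an inner nuclear membrane protein, was present in Case 1 to 5 and Dapa 9, and in the complete lists in 2 Ctrl and 3 Dapa mice. Neither of these promoters met the rule there. The region 111 bp from the start of Aire, the autoimmune regulator known from the thymus, chr10:78043008-78043791, had ranks of 22530, 15802, 29314 and 25001 in Case 1 to 4. It had no summit at any score in the other 13 mice.

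Members present in all 6 Case mice lay close to the limits on the other side. Of these 36 members, 14 had a summit in 2 Ctrl and 3 Dapa mice, the most the rule allows. A protein-coding start lay within 1 kb of the median summit in 9 of the 36, none with a copy. This held for 28.3% of all regions and 11.1% of all members. The count of 9 is thus near the share of all regions and is not a result about this subset. These 9 were the promoters of Gm10642, Sema3b, Arhgef10l, Anxa6, Tmem171, Irgm1, Cyp4f17, Ehmt2 and Ring1. In the complete lists each had a summit in 3 to 5 Ctrl mice, so none of the 9 met the rule there. Ehmt2 and Ring1 encode chromatin repressors, a histone methyltransferase and a polycomb ubiquitin ligase. In the complete lists, Ehmt2 had a summit in 4 Ctrl and 3 Dapa mice and Ring1 in 5 and 5. Gm10642, which shares its start region with Mindy2, had one in 5 Ctrl mice and 4 Dapa mice. Sema3b, a secreted semaphorin, had ranks of 10715 to 27896 in Case, 27713 and 27132 in Ctrl 3 and Ctrl 5, and 17942 and 15379 in Dapa 7 and Dapa 12. Arhgef10l, a guanine nucleotide exchange factor, had ranks of 12152 to 28845 in Case and stood higher in the lists of Dapa 11 (11176) and Ctrl 4 (15187) than in those of 6 and 5 of the Case mice, respectively.

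**Figure D5:**
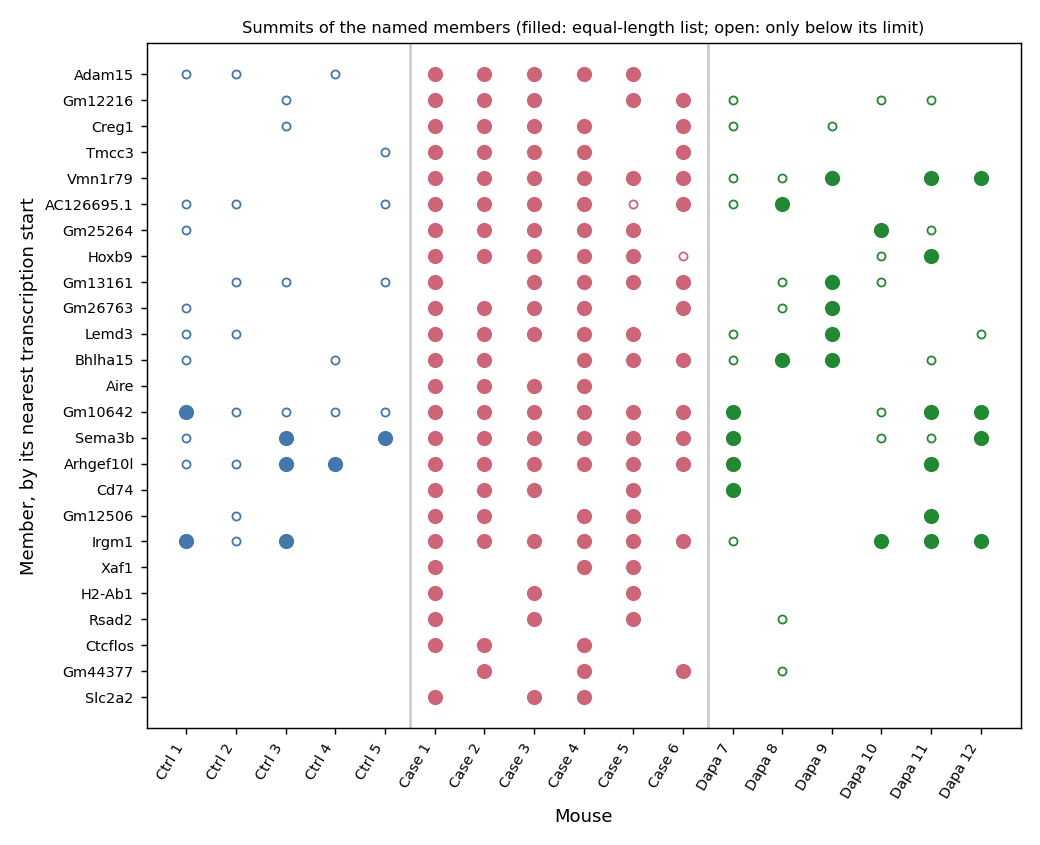
Summits of 25 named members (rows, by nearest transcription start) in each mouse (columns; blue Ctrl, red Case, green Dapa). Large filled points mark a summit in the list of equal length and small open points only one below its limit. The region at Gm12506 is the one nearest Klf4, Ctcflos that nearest Pck1 and Gm44377 that nearest Ppargc1a, and Ctrl or Dapa summits are seen at most members except Aire, Xaf1, H2-Ab1, Ctcflos and Slc2a2.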

How the data were processed

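Kidney ATAC-seq libraries of 17 mice were used. The deposited files list, for each library, the MACS2 summits with a score that the authors gave on the −log10 scale of either a p-value or a q-value, and the choice is not given in the sources used here. The authors aligned reads to mm10 with Bowtie2 with the ENCODE pipeline, filtered out PCR duplicates and blacklisted places, shifted reads for the Tn5 cut and called peaks per library. The labels' processing notes also name DiffBind and HOMER. Read totals were not used here, so depth is unknown. A shallow library gives fewer and weaker summits, and no interval for depth is given. Mice are the replicates.

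Summits on 19 autosomes, X and Y were sorted by score, and as many as the shortest list holds were kept per mouse. Between 1 and 4351 summits of a library shared the last score kept, and they were ordered at random with a fixed seed. In 20 other orders 452 to 467 regions met the rule (median 459), and 390 of the 452 members met it in every one. Extended summits gave 116403 merged regions, 52415 of them in at least 2 libraries. Starts and features came from GENCODE M21 (141767 transcripts of 55450 genes). Copies were searched with minimap2 2.31 in the GRCm38.p6 assembly, where 98.9% of windows were found at their own place. Sequences were read with pysam 0.24.0, and tables were made with Python 3.11.15, numpy 2.4.6, pandas 2.3.3 and scipy 1.17.1. The rule's script was tested on simulated lists.

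No difference between groups was tested, since the rule used presence in every library. Dixon's test was used to point out single mice far from their group. Named regions were the first 10 members by the sum of both differences in share, then by mean Case rank, up to 10 members within 1 kb of a protein-coding start in the same order, those nearest a gene of 8 lists, and those at Isg15, Btla, Csf2rb or Slc5a2. The region nearest Ier5 and the others with high ranks, and the 9 promoters present in all Case mice, were chosen after their values were seen. The members and lists were chosen with earlier results of these data known. Of 23 tubular injury genes, 22 were found in the annotation. The alternatives were other list lengths, extensions, differences in share, library minimums, a score minimum, promoter distances, chromosomes, orders of tied summits, and each mouse left out.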

Additional observations from a re-analysis of the deposited data

Results flagged for a closer look

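In 51 groups of values per mouse, 1 mouse lay far from the rest of its group (Dixon's test at the 95% level) in 5, where about 2.55 would be so by chance. Ctrl 5 had 1 member summit in the first of 3 equal parts of its list, and the other Ctrl mice had 0. Where all other mice are at 0 any count is far from them by this measure, and presence of members was used to choose them, so this value says little. Summits within 1 kb of a start were found for 11 of 25 leukocyte genes in Case 3, with 0 to 2 in the rest of that group, and for 2 in Ctrl 4, against 0 in the other Ctrl mice, where any count would again stand out. Case 3 also had such summits at 4 of 18 endothelium and stroma genes, against 1 to 2 in its group. Dapa 8, the Dapa mouse with the most members, had summits at 10 of 25 kidney epithelium genes, against 12 to 13 in its group.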

How the results depend on the processing

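The number of members, 452, depended on the list length, the score and the size of the difference. It was 229 with lists of 0.5 times the length, 111 with scores of at least 5, 52 when a difference of 4 mice of 6 was asked for and 4 with a difference of 0.67, which 4 of 6 just misses. It lay between 406 and 489 with all summits, extensions of 100 or 500 bp, autosomes only and other orders of tied summits, and was 257 when members with a copy were dropped. Leaving out 1 mouse gave 263 to 537 members, with 263 without Case 4, 295 without Case 3 and 298 without Case 1, where fewer Case mice leave fewer ways to meet the rule. The share of members at a start, 16.6%, was 28.4% with these shorter lists, 23.6% with a 100 bp extension, 50% with a difference of 0.67 (2 of 4 members), 22.6% without copies and 28.8% at 3 kb, and 15.3% to 19.8% with 1 mouse left out. All regions had 47.8%, 35.9% and 43.8% at a start with the shorter lists, 100 bp and 3 kb, above the members in each. The share with a copy, 43.1%, was 21.0% with them, 21.6% with scores of at least 5, 34.8% with 100 bp, 48.1% with 500 bp and 0% at 0.67. The median share found in a left-out mouse was 41.3% in Case, 18.3% in Ctrl and 30.1% in Dapa with the shorter lists, and 22.0%, 21.2% and 14.7% with all summits, so that Case and Ctrl were nearly equal there. In both settings the choice was again stricter for left-out Case mice. The cause of the shifts between settings was not tested. The tied orders, the 4-of-6 setting and the alternatives for copies and left-out mice were added after seeing the data. No paired analysis was possible because the groups hold different mice and no label ties them into pairs.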
